A study of Mus musculus with 6 samples.

Results

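Arhgap24, Cp, Dmd, Hdac11, Igf1, Loxl1 and Mapt are genes that the study displays with lower mRNA levels in muscle stem cells (MuSCs) lacking TAF4A, and each of them also carries an ATAC-seq peak that is more accessible in these cells. They were chosen from measured values of the same contrast that is described here. The choosing peak of each gene is annotated to it, has a mean value above 10 over the 6 libraries and a log2 ratio above 1, where the ratio is the Taf4a sKO mean plus 1 over the control mean plus 1. The members are the 29 peaks annotated to the 7 genes and the 92 peaks without an annotated gene that lie between the start and the end of one of them. These 121 regions, of 75412 in the whole series, all exceeded the mean value of 10. Because the contrast chose the genes, the values of the 121 peaks are given as a description, with no p-value, and counts of calls stand only beside the share over all peaks. mRNA was not analysed here.

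ATAC-seq reads accessible chromatin through the insertions of Tn5 transposase. It was applied to 50000 freshly isolated MuSCs per library, with 3 control and 3 Taf4a sKO libraries of C57BL/6 mice. Taf4a sKO animals carry the Pax7CreERT driver and a Taf4a allele with loxP sites around exons 11 and 12 on both chromosomes, and adult mice received tamoxifen, so that deletion is directed to Pax7-expressing cells. Controls were littermates with the same floxed alleles, with or without the driver. Which of these control genotypes each library came from, and whether the controls of these libraries received tamoxifen, is not given in the sources used here. The cells were sorted as negative for SCA1, CD45 and CD31 and positive for integrin alpha 7 or, in mice with the Pax7-zsGreen reporter, for green fluorescence, and the route used for these libraries and the number of animals in each are not given in the sources used here. The values are reads per peak that the authors normalized for sequencing depth and rounded. Summed over all peaks they came to 37722015, 35226223 and 42803315 in control libraries 1 to 3 and to 44311913, 41661725 and 41948821 in Taf4a sKO libraries 1 to 3. A difference in such bulk values can come from the number of cells that are open at a site or from the openness per cell, which cannot be told apart.

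The targeted gene was examined first. Its peak over the floxed exon 12, on chromosome 2 from 179922849 to 179923263 (mm10), had values of 65, 78 and 137 in control and 44, 22 and 25 in Taf4a sKO libraries, so that the genotypes did not overlap and Taf4a sKO libraries were lower. The peak at the Taf4 promoter, from 179975752 to 179977530, had 2305, 1998 and 2375 against 2095, 2124 and 2104, and the genotypes overlapped. Other peaks of the gene were lower too. At exon 7, a peak from 179931701 to 179932202 had 253, 249 and 302 against 140, 145 and 165, and a peak within the gene from 179916955 to 179917641 had 132, 123 and 159 against 104, 95 and 93, both without overlap. A peak 3331 bp from the start site, from 179979788 to 179980166, was higher, with 488, 437 and 653 against 831, 695 and 759.

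Chromatin accessibility reports where DNA can be reached by proteins, not how much RNA is made. Peaks at start sites mark promoters, while peaks inside introns or upstream often mark distal elements that can bind activators as well as repressors. The 7 genes have unrelated roles. Igf1 encodes a growth factor that acts through the receptor Igf1r and the AKT pathway and is known for its part in muscle growth. Arhgap24 encodes a GTPase-activating protein of Rac that binds filamin A. Dmd encodes dystrophin, which links the actin cytoskeleton to the membrane complex around dystroglycan and is also known for a role in the polarity of dividing MuSCs. Mapt encodes the microtubule-binding protein tau, Loxl1 a lysyl oxidase of elastic fibres, Hdac11 a class IV histone deacetylase and Cp ceruloplasmin, a copper-containing enzyme that oxidises iron.

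The central 200 bases of the 7 choosing peaks are printed because they are the DNA on which the choice of the genes rests. They are the plus strand of GRCm38 (mm10) from RefSeq, 5′ to 3′, in lower case, with capitals for matches on either strand to E-box CANNTG, AP-1 site TGANTCA, NF-Y box CCAAT, Sp1 box GGGCGG, TEAD site GGAATG, Runx site TGTGGT or NF1 element TTGGCA. An NF-Y box read on the other strand can overlap an NF1 element.
Igf1, chr10:87863102-87863301: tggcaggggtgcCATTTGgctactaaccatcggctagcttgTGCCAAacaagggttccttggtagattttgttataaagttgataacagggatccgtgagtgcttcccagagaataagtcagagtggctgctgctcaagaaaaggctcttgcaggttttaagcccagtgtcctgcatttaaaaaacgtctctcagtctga
Arhgap24, chr5:102474448-102474647: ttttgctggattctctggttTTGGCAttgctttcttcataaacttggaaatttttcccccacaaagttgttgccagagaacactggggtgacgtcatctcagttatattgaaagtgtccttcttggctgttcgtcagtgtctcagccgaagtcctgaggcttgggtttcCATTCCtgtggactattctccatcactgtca
Dmd, chrX:82949904-82950103: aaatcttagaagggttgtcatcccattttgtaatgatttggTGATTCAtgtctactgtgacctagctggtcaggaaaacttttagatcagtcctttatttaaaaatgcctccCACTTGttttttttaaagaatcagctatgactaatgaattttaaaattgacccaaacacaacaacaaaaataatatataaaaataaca
Mapt, chr11:104238218-104238417: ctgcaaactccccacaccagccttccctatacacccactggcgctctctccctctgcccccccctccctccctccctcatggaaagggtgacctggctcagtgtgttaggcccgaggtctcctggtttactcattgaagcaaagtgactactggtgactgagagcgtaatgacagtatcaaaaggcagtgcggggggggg
Loxl1, chr9:58303128-58303327: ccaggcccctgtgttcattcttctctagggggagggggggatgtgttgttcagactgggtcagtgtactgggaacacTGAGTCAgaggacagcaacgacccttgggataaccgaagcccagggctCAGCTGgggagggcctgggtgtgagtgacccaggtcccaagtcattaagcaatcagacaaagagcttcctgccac
Hdac11, chr6:91160534-91160733: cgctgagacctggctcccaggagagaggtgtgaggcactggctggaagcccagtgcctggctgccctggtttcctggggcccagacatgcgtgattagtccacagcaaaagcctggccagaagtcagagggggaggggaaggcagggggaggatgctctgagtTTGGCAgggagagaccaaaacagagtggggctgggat
Cp, chr3:19966130-19966329: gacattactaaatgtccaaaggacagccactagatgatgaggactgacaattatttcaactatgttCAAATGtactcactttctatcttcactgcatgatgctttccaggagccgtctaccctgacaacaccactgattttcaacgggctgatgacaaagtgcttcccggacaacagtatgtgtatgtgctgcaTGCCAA

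An NF1 element was found in 4 of these 7 windows (Igf1, Arhgap24, Hdac11 and Cp), and 16.6% of the windows of all 75384 peaks with a mean above 10 hold one. E-boxes, the sites of basic helix-loop-helix factors such as MYOD, were present in 4 windows (Igf1, Dmd, Loxl1 and Cp), beside 67.8% of all peaks. AP-1 sites, bound by FOS and JUN proteins, were present in 2 windows (Dmd and Loxl1), beside 17.3% of all peaks, and the TEAD site in 1 (Arhgap24), beside 13.3%. No window held an NF-Y box, an Sp1 box or a Runx site, beside 23.0%, 15.5% and 14.1% of all peaks. Among the 5294 gained peaks of the whole table, the NF1 element was present in 22.3%, the E-box in 70.0%, the AP-1 site in 28.4%, the TEAD site in 17.6%, the NF-Y box in 24.5%, the Sp1 box in 5.25% and the Runx site in 15.3%. The Mapt window held none of the searched letters, which says nothing about the factors. GC content ran from 30% (Dmd) to 62% (Hdac11) with a median of 46.5%, while the windows of the 7 start-site peaks had a median of 62% and all peaks one of 51%.

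The genes were measured at very different numbers of peaks, from 4 for Hdac11 to 55 for Arhgap24. Of the 121 peaks, 103 lay in introns, 12 overlapped an exon of the principal transcript, 5 lay upstream and 1 downstream of it (GENCODE vM21). By the thresholds that chose the genes, 17 peaks were gained, 7 choosing peaks and 10 peaks inside the gene bodies, and 3 were lost, all of them in Arhgap24. Over all 75384 peaks with a mean above 10, 7.02% were gained and 5.36% were lost. The 3 Taf4a sKO values were all above the 3 control values at 67 of the 121 peaks and all below at 11, beside 32.3% and 18.0% of all peaks, and the genotypes overlapped at 43. Without the choosing peaks, limma, at an adjusted p under 0.05, called 53 of 114 peaks higher and 8 lower, beside 28.0% and 13.9% of all peaks. Of the 104 peaks that were not gained it called 43 higher and 8 lower, beside 22.6% and 14.9% of all peaks that were not gained. Since the same contrast chose the genes, nothing is read from these counts. The median log2 ratio of the 104 peaks that were not gained was 0.30, and that of all 70090 peaks that were not gained was 0.07. It was 0.14 for the 22 annotated peaks among them and 0.35 for the 82 with no annotated gene, beside 0.06 and 0.09 over all such peaks, and 0.15 to 0.19 for the 104 under other scalings. A ratio above 0 was found at 48 of the 55 peaks of Arhgap24 and at 48 of the 66 peaks of the other 6 genes. The total of 96 became 88 with TMM factors, 85 with scaling to total signal and 88 with quantile normalization. The median of all peaks was itself above 0 with the authors' scaling (0.10), and the share of all peaks above 0 is not given here.

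Scaling bears on these values. The median log2 ratio of all peaks was 0.10 with the authors' scaling, -0.01 with TMM factors, -0.04 after scaling to total signal and -0.03 after quantile normalization. Of all peaks that limma called, 66.8% were higher in Taf4a sKO MuSCs with the authors' scaling and 53.2%, 47.6% and 49.8% with these alternatives. Of the 7 choosing peaks, 4, 3 and 5 kept a log2 ratio above 1, and all 7 kept one above 0.9. The median over the 121 member peaks was 0.37 with the authors' scaling and 0.25, 0.22 and 0.23 with the alternatives.

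**Figure D1:**
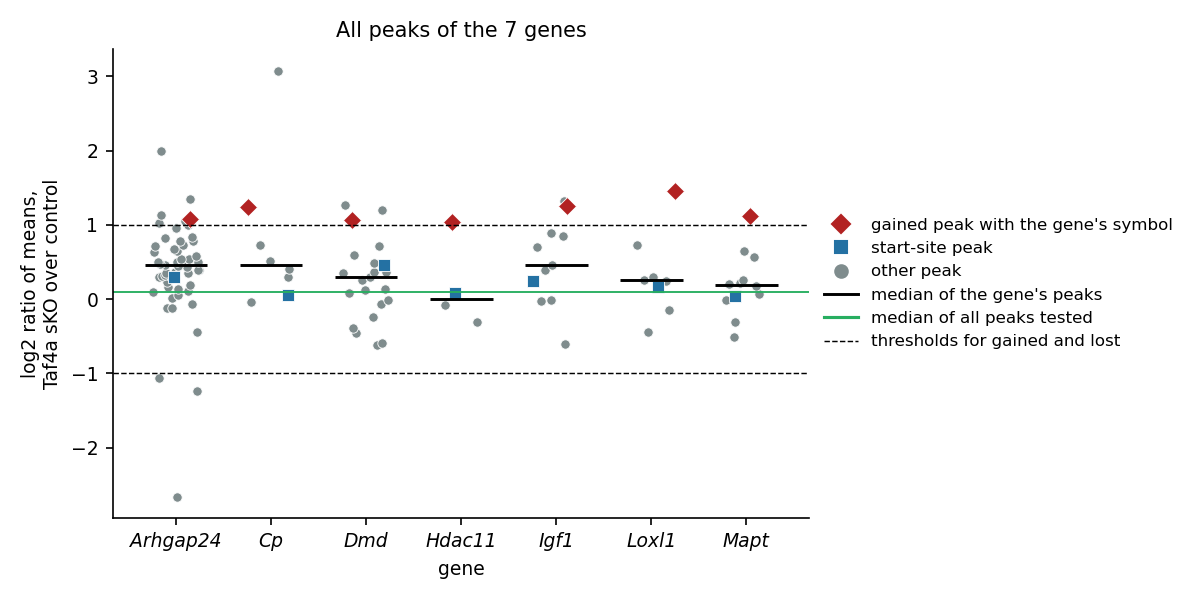
Log2 ratio of the Taf4a sKO over the control mean for each of the 121 peaks, by gene, with the gained peak annotated to each gene as a diamond, the start-site peak as a square, other peaks as circles, the median of each gene as a black line and the median of all peaks tested as a green line. The start-site peaks lie between 0.04 and 0.46, the annotated gained peaks between 1.04 and 1.46, and the highest circle is the second gained peak of Cp at 3.08.

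Igf1 has 11 peaks on chromosome 10 between 87854547 and 87927751. Its choosing peak, from 87862971 to 87863431 in intron 1 and 4936 bp from the start of the gene, also lies in the antisense gene Igf1os. The peak centre is 180 bp from an annotated transcript start, while the start of transcript Igf1-206 is 1872 bp away. Which gene the nearer start belongs to was not examined, so this peak may lie at a promoter. The values were 94, 65 and 43 in control and 164, 156 and 166 in Taf4a sKO libraries (limma log2 fold change 1.32, standard error 0.22). The genotypes did not overlap, and control library 1 was the control nearest to the Taf4a sKO values. Without control library 1 the log2 ratio of 1.25 became 1.57, and without control library 3 it became 1.02. A second gained peak in intron 2, from 87885437 to 87885951, had 29, 36 and 41 against 72, 108 and 89 (log2 ratio 1.32). Its central window held an AP-1 site, 2 NF-Y boxes and an NF1 element, and is printed because the first gained window of the gene held neither of the first 2.
Igf1, intron 2, chr10:87885595-87885794: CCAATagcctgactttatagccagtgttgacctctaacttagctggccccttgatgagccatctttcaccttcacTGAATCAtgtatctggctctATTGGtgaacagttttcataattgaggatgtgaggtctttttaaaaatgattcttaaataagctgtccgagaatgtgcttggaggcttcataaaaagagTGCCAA
The peak of the gene with the highest value, in intron 4 from 87926449 to 87927751, had 1555, 1225 and 1420 against 1347, 1358 and 1458, with overlapping genotypes. Next to it, the peak from 87922481 to 87922812 was lower in each Taf4a sKO library, with 146, 120 and 129 against 79, 101 and 79 (log2 ratio -0.60). All 5 peaks of intron 2 were higher in the Taf4a sKO libraries without overlap, beside 32.3% of all peaks, and nothing is read from this count. Among the 5, the peak from 87900548 to 87900793 had 40, 51 and 62 against 99, 79 and 107 (log2 ratio 0.88).

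Arhgap24 spans 416547 bp of chromosome 5 and holds 55 of the peaks. The choosing peak, from 102474373 to 102474722, lies 6844 bp upstream of the start of the gene and inside the non-coding gene 1700013M08Rik, and had values of 49, 59 and 57 in control and 126, 121 and 105 in Taf4a sKO libraries (limma log2 fold change 1.08, standard error 0.20). Within the gene, 6 further peaks were gained, in introns 2, 3 and 4. The intron 4 peak from 102854642 to 102854986 changed most, with 18, 19 and 26 against 89, 90 and 80, which is a 4.11-fold ratio of means. In intron 2, the peak from 102560399 to 102561178 had 60, 74 and 71 against 187, 189 and 151 (log2 ratio 1.35), and the peak from 102568389 to 102569234 had 225, 242 and 272 against 545, 570 and 514 (log2 ratio 1.14). The other 3, in intron 3, had log2 ratios of 1.03, 1.06 and 1.04. At all 7 gained peaks the genotypes were apart, which the threshold on the ratio largely fixes, so nothing is read from it.

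Lost peaks occurred in the same gene. The intron 1 peak from 102516265 to 102516575 had 75, 71 and 59 in control and 7, 10 and 13 in Taf4a sKO libraries (log2 ratio -2.66), the lowest ratio among the 121 peaks. Another peak of intron 1, from 102515265 to 102515695, had 86, 85 and 92 against 42, 37 and 46 (log2 ratio -1.06), and the intron 3 peak from 102801925 to 102802332 had 113, 88 and 99 against 36, 58 and 32 (log2 ratio -1.23). The windows of the most gained and the most lost peak of the gene are shown side by side.
Arhgap24, gained in intron 4, chr5:102854715-102854914: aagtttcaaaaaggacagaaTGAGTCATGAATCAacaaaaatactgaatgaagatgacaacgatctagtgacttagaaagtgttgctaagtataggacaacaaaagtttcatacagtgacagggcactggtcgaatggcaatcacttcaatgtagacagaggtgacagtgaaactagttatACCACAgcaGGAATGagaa
Arhgap24, lost in intron 1, chr5:102516321-102516520: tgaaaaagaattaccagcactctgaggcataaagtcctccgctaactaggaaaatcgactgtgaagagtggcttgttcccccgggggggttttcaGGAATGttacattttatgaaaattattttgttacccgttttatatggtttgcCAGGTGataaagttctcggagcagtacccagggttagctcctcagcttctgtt
The gained window held a pair of adjacent AP-1 sites, a TEAD and a Runx site, and the lost window an E-box and a TEAD site. Of the remaining peaks of the gene, those at the starts of shorter transcripts were close to the start-site peak in their ratio. The peak at the start of transcript Arhgap24-204, from 102768341 to 102769311, had 1093, 1055 and 1083 against 1318, 1250 and 1217 (log2 ratio 0.23), and that of Arhgap24-201, from 102844885 to 102845734, had 989, 906 and 1057 against 1168, 1259 and 1203 (log2 ratio 0.30).

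**Figure D2:**
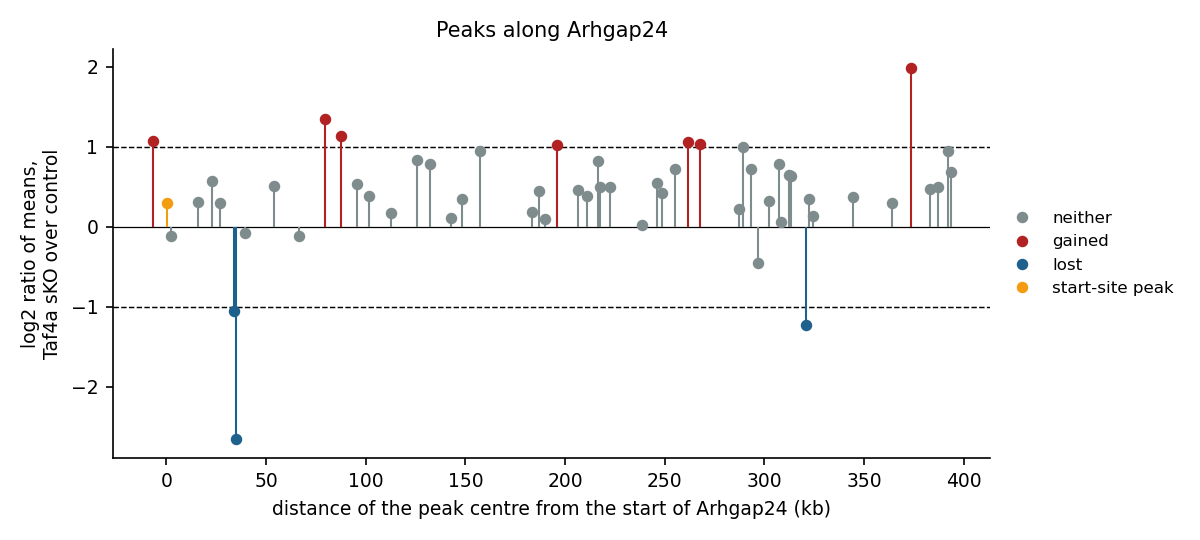
Log2 ratio of the Taf4a sKO over the control mean (vertical axis) of the 55 Arhgap24 peaks by the distance of the peak centre from the start of the gene in kb (horizontal axis), with the thresholds for gained and lost peaks as dashed lines. The 7 gained peaks are spread from upstream of the gene to intron 4, and 2 of the 3 lost peaks lie next to each other in intron 1.

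Dmd, whose span of 2257272 bp is the longest of the 7, has 23 peaks, and long stretches of it have none. Its choosing peak, on chromosome X from 82949687 to 82950319, lies in intron 1, 1133 bp from the start of the gene. The values were 125, 144 and 163 in control and 248, 360 and 303 in Taf4a sKO libraries (limma log2 fold change 1.06, standard error 0.16), and the log2 ratio of 1.07 became 0.98 without control library 1 and 0.93 without Taf4a sKO library 2. Near the 3′ end 2 further peaks were gained. The peak of intron 60, from 84942364 to 84942750, had 31, 27 and 51 against 86, 101 and 80 (log2 ratio 1.27), and that of intron 63, from 85084092 to 85085089, had 251, 218 and 281 against 580, 545 and 604 (log2 ratio 1.20). Between them lies the start of transcript Dmd-201, where the peak from 85047895 to 85048961 had 763, 686 and 855 against 942, 929 and 973 (log2 ratio 0.30). The start-site peak of the full-length transcript, from 82948426 to 82949196, had 447, 417 and 501 against 655, 632 and 588 (log2 ratio 0.46), the highest ratio among the 7 start-site peaks. All Taf4a sKO values were above the control values at 11 of the 23 peaks, beside 32.3% of all peaks. In the other direction, the genotypes were apart at 4 peaks, all within 2-fold, beside 18.0% of all peaks. These 4 include the intron 1 peak from 82955820 to 82956172, 7126 bp from the start, with 126, 98 and 81 against 76, 56 and 70 (log2 ratio -0.59). The intron 50 peak from 84436647 to 84436908, with 69, 85 and 59 against 56, 45 and 37, had a log2 ratio of -0.62, and the intron 37 peak from 83913254 to 83913447, with 53, 43 and 60 against 40, 42 and 31, had one of -0.45.

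Mapt has 12 peaks on chromosome 11. The choosing peak in intron 1, from 104238052 to 104238583, had 135, 147 and 177 in control and 309, 329 and 360 in Taf4a sKO libraries (limma log2 fold change 1.12, standard error 0.15). Its neighbour, from 104237202 to 104237657, had 242, 218 and 250 against 294, 252 and 281 (log2 ratio 0.22), so that adjacent peaks of the same intron differed in their ratio. At the start of the gene the peak from 104230809 to 104231892 had 1499, 1327 and 1699 against 1565, 1572 and 1521 with overlapping genotypes. The intron 8 peak from 104316904 to 104317384 had 57, 78 and 99 against 121, 130 and 119 (log2 ratio 0.65), and the intron 9 peak from 104318944 to 104319715 had 154, 140 and 241 against 272, 262 and 257 (log2 ratio 0.56). One peak was lower in each Taf4a sKO library, in intron 1 from 104232408 to 104232730, with 208, 209 and 169 against 161, 156 and 155 (log2 ratio -0.31).

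Loxl1 lies on the minus strand of chromosome 9 and has 8 peaks. Its choosing peak had the largest ratio of the 7. It lies in intron 1 from 58303074 to 58303381, 9959 bp from the start of the gene, and had 101, 113 and 147 in control and 386, 322 and 292 in Taf4a sKO libraries, a 2.77-fold ratio of means (limma log2 fold change 1.47, standard error 0.17). Further into intron 1, the peak from 58299335 to 58299834 had 802, 654 and 886 against 1403, 1328 and 1155 (log2 ratio 0.73), and the upstream peak from 58314826 to 58315410 had 635, 564 and 734 against 805, 769 and 806 (log2 ratio 0.30). At the other 5 peaks, the start-site peak included, the genotypes overlapped.

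Hdac11 and Cp encode enzymes. Hdac11 has only 4 peaks, on chromosome 6, and its choosing peak, from 91160550 to 91160717 in intron 3, is 168 bp wide. It had 51, 46 and 67 in control and 121, 104 and 116 in Taf4a sKO libraries (limma log2 fold change 1.06, standard error 0.20), and its log2 ratio of 1.04 became 0.93 without control library 2 and 0.996 without control library 1 or Taf4a sKO library 1. The peak from 91165179 to 91165730, which overlaps exon 4, had 131, 123 and 152 against 121, 86 and 121 (log2 ratio -0.31), and the other 2 peaks overlapped between genotypes. The median log2 ratio over the 4 peaks was 0.00063, the lowest among the 7 genes.

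The Cp gene had the largest ratio of all 121 peaks. Its gained peak on chromosome 3 from 19978418 to 19978905 is not annotated to the gene, overlaps exon 11 and lies 21607 bp from the start. The values were 11, 15 and 23 in control and 151, 129 and 156 in Taf4a sKO libraries, an 8.90-fold ratio of means (limma log2 fold change 3.13, standard error 0.26). The highest control value was thus well below the lowest Taf4a sKO value. Its central window, shown because of this ratio, held 2 E-boxes and no other match.
Cp, exon 11 peak, chr3:19978562-19978761: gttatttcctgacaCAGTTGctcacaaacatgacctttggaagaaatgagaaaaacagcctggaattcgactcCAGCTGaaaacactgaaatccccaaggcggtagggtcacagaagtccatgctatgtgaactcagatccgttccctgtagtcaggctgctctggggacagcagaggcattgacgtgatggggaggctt
The choosing peak of Cp, from 19966023 to 19966436 and overlapping exon 3, had 51, 47 and 57 against 101, 129 and 142 (limma log2 fold change 1.24, standard error 0.20). A peak from 20002808 to 20003189, inside the interval of Cp but also in the overlapping gene Hps3, had 51, 79 and 94 against 129, 116 and 128 (log2 ratio 0.73). At the start of Cp, from 19956787 to 19957385, the values of 607, 520 and 616 and of 616, 610 and 590 overlapped.

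The threshold of 1 separated peaks with nearly the same ratio. Just inside were the Arhgap24 peaks from 102677112, 102749022 and 102742664 and the choosing peak of Hdac11, with log2 ratios of 1.03, 1.04, 1.06 and 1.04. Just outside were the Arhgap24 peaks from 102770589, 102873533 and 102638635 and the Igf1 peak from 87900548, with 0.998, 0.95, 0.95 and 0.88. The first of these had 108, 161 and 190 in control and 266, 330 and 324 in Taf4a sKO libraries.

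The promoters of the 7 genes were compared with the gained peaks. At the annotated peak nearest the start site the log2 ratio was 0.46 for Dmd, 0.30 for Arhgap24, 0.25 for Igf1, 0.16 for Loxl1, 0.08 for Hdac11, 0.06 for Cp and 0.04 for Mapt, with a median of 0.16. The genotypes were apart at Dmd, Arhgap24 (1552, 1446 and 1816 against 2102, 1970 and 1842) and Igf1 (164, 159 and 160 against 173, 188 and 214), and overlapped at the other 4. Over all peaks, 32.3% were apart in this direction. At Igf1, a peak 180 bp from the start of transcript Igf1-204, from 87860592 to 87860980, overlapped between genotypes. Its values were 100, 85 and 97 against 99, 97 and 80 (log2 ratio -0.03). With TMM factors the ratios of the 7 start-site peaks ran from -0.06 to 0.35, and with quantile normalization from -0.16 to 0.23, so that the direction at the genes with the lowest ratios depends on the scaling.

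The choosing peak was also set against the start-site peak within each library. For this, log2(value + 1) of the choosing peak minus that of the start-site peak was computed. The difference between genotypes in this measure was 1.30 ± 0.09 (standard error) for Loxl1, 1.17 ± 0.17 for Cp, 1.08 ± 0.32 for Igf1, 1.07 ± 0.12 for Mapt, 0.98 ± 0.11 for Hdac11, 0.78 ± 0.13 for Arhgap24 and 0.60 ± 0.20 for Dmd, with n = 3 libraries per genotype. The choice of the peaks largely fixes the direction of these differences, so nothing is read from it. Igf1 had the largest spread among control libraries, from -1.87 to -0.80. The mean value of the choosing peak of Igf1 was 41.8% of that of the start-site peak in control and 84.5% in Taf4a sKO MuSCs, at widths of 461 and 514 bp. For Hdac11 the shares were 3.32% and 6.53%, at widths of 168 and 1033 bp.

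**Figure D3:**
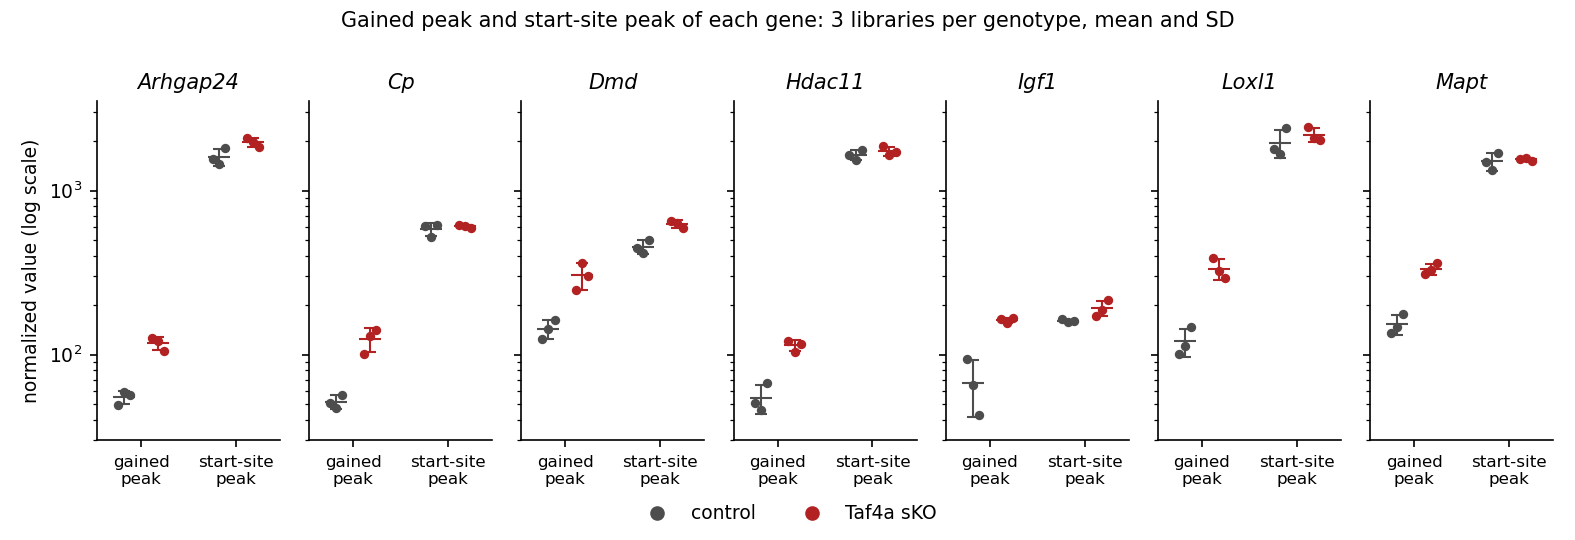
Normalized value on a log axis of the choosing gained peak and of the start-site peak of each gene, with a point for each of the 3 control and 3 Taf4a sKO libraries, and the mean with SD. The points of the genotypes are apart at each gained peak, which the choice of these peaks largely fixes, while the start-site peaks of Cp, Hdac11, Loxl1 and Mapt overlap.

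**Figure D4:**
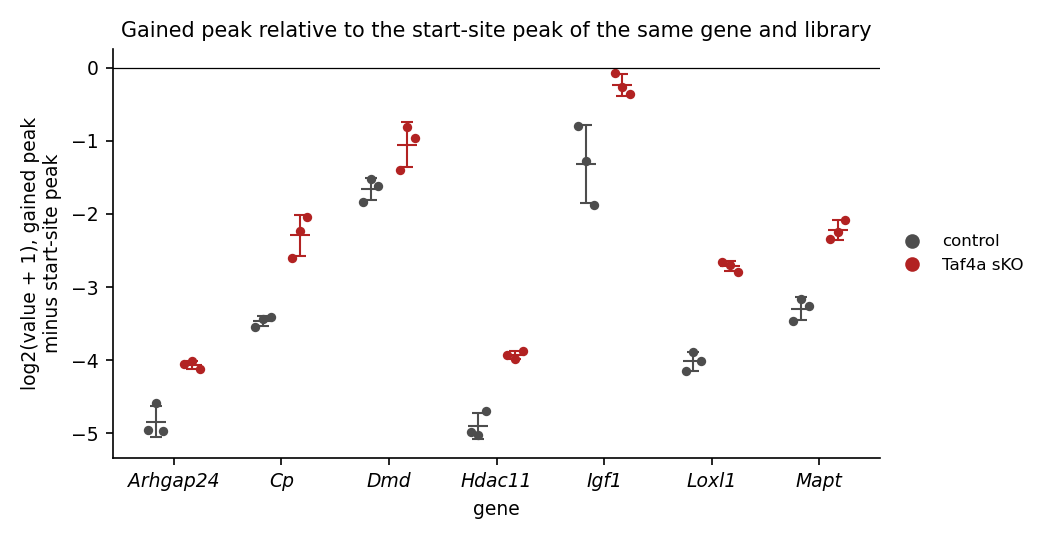
Log2(value + 1) of the gained peak minus that of the start-site peak in the same library (vertical axis) for the 7 genes, with a point per library and the mean with SD. All values are below 0, and the Taf4a sKO libraries lie above the control libraries in each gene, by 0.60 for Dmd up to 1.30 for Loxl1.

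Among the genes that the study displays with changed expression, others carry a lost peak or a gained peak with higher expression. These groups rest on the same 6 libraries, were chosen from the same contrast, and their differences were not tested. For 10 genes with lower expression and a lost peak (31 annotated peaks), the median log2 ratio at the start-site peak was -0.57, with a range from -1.33 to 0.32. For 4 genes with higher expression and a gained peak (11 annotated peaks), it was 0.55, with a range from 0.38 to 0.96. In the first group the start-site peak of 1 gene is itself the lost peak, and in the other groups none is, so the choice bears on these medians. In the 7 genes it was 0.16, with a range from 0.04 to 0.46. The median distance of the altered annotated peaks from the start site was 3304.5 bp, 6377 bp and 6843 bp in the same order.

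Genes that act with Igf1, Dmd, Loxl1, Hdac11, Mapt and Cp were examined by lists of 72 genes, of which 66 have an annotated peak, 131 in all. Limma called 40 of these peaks higher and 8 lower in Taf4a sKO MuSCs (adjusted p under 0.05), beside 28.0% and 13.9% of all peaks. With TMM factors 22 were lower, with total signal 27 and with quantile scaling 28, while 40, 37 and 37 were higher. Of all peaks, 16803, 19464 and 18898 were lower under these scalings, and 19125, 17664 and 18711 were higher. These counts are out of 75384 peaks or, with quantile scaling, 75385. The counts by list below are those with the authors' scaling. By the thresholds 2 of the 131 peaks were gained and 2 were lost, beside 7.02% and 5.36% of all peaks. Of all annotated peaks, the like group, 4.85% were gained. Among annotated peaks that were not gained, limma called 18.6% higher and 12.1% lower. For peaks with no gene that were not gained, these shares were 26.4% and 17.6%. The shares of all peaks that stand beside the lists and the markers include peaks with no gene. They are therefore not the shares of the like group.

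In the IGF axis of ligands, receptors, substrates and binding proteins, 11 of 34 peaks were higher and 0 lower. Of all peaks, 28.0% were higher and 13.9% lower. The smallest adjusted p values were at Igfbp7, which encodes a secreted binding protein. Its peak 267 bp from the start site had 610, 616 and 766 in control and 1134, 1054 and 1156 in Taf4a sKO libraries (limma log2 fold change 0.75, adjusted p = 1.9e-05). A peak 7384 bp away had 210, 233 and 208 against 534, 332 and 417 (limma log2 fold change 0.95, adjusted p = 4.9e-05). The genotypes were apart at both.

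In the dystrophin complex 14 of 31 peaks were higher and 3 lower, beside 28.0% and 13.9% of all peaks. Sgcd had no annotated peak. Dtna, which encodes dystrobrevin alpha, rose at a peak 232 bp from its start site from 195, 185 and 156 to 415, 332 and 302 (limma log2 fold change 0.96, adjusted p = 3.1e-05). Utrn, which encodes the dystrophin paralog utrophin, rose from 379, 363 and 462 to 665, 673 and 693 at a peak 5601 bp away (limma log2 fold change 0.76, adjusted p = 4.6e-05). In contrast, Nos1, encoding the neuronal nitric oxide synthase that binds the complex, had 276, 240 and 319 against 196, 144 and 172 at 186 bp from the start site (limma log2 fold change -0.70, adjusted p = 0.0011). Dag1, encoding dystroglycan, had 2267, 1821 and 1872 against 1621, 1098 and 1183 at a peak 9085 bp away (limma log2 fold change -0.62, adjusted p = 0.0011).

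Among lysyl oxidases and elastic fibre genes 8 of 22 peaks were higher and 1 lower, beside 28.0% and 13.9% of all peaks. Loxl2 had no annotated peak. Eln, encoding elastin, the substrate that lysyl oxidases cross-link, rose from 249, 265 and 288 to 631, 619 and 735 at a peak 6489 bp from its start site (limma, adjusted p = 8.2e-08, with a log2 fold change of 1.30), and this peak was gained. Lox itself rose from 1168, 973 and 1415 to 1939, 1975 and 1979 at 242 bp from its start site (limma log2 fold change 0.75, adjusted p = 3.1e-05). The other gained peak, at Fbln2, had 58, 60 and 201 in control and 307, 299 and 440 in Taf4a sKO libraries and did not pass the test (limma, adjusted p = 0.055), with control library 3 far above the other controls. The Fbln1 peak at 82 bp from its start site had 281, 315 and 360 against 243, 226 and 267 (limma log2 fold change -0.37, adjusted p = 0.043). That call was lost when any library but control library 1 was left out, with an adjusted p of up to 0.156 by limma.

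Histone deacetylase genes showed 2 of 14 peaks higher and 3 lower, beside 28.0% and 13.9% of all peaks. Hdac3 had no annotated peak. Hdac9 had 50, 55 and 64 against 12, 26 and 21 (limma, adjusted p = 0.00031, with a log2 fold change of -1.53) and Hdac4 had 31, 34 and 49 against 21, 15 and 19 (limma, adjusted p = 0.014, with a log2 fold change of -0.997), and both peaks were lost by the thresholds. The Hdac4 call was lost without control library 3 (limma, adjusted p = 0.0585). Another Hdac4 peak, 337 bp from the start site, was higher, with 796, 730 and 1052 against 1134, 1146 and 1128 (limma log2 fold change 0.42, adjusted p = 0.0084), but not without control library 2 (limma, adjusted p = 0.0635). Hdac7 rose at 6569 bp from its start site from 228, 232 and 293 to 355, 369 and 365 (limma log2 fold change 0.54, adjusted p = 0.0037). A second Hdac7 peak, 4444 bp from the start site and named after its values were seen, was lower, with 392, 324 and 414 against 315, 227 and 298 (limma log2 fold change -0.43, adjusted p = 0.024), but not without control library 1 or Taf4a sKO library 2 (limma, adjusted p of up to 0.183).

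For microtubule-associated proteins 4 of 16 peaks were higher and 1 lower, beside 28.0% and 13.9% of all peaks. Both directions were found at Map2, which encodes a relative of tau. Its peaks 2948 and 6226 bp from the start site rose with limma log2 fold changes of 0.78 and 0.60 (adjusted p = 1.0e-05 and 8.7e-05), while the peak at 2922 bp fell from 810, 714 and 850 to 591, 560 and 476 (limma log2 fold change -0.55, adjusted p = 0.0010).

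In iron and copper handling genes, the partners of ceruloplasmin, 1 of 14 peaks was higher and 0 lower. Beside this stand 28.0% and 13.9% of all peaks. The higher peak, of the ferritin gene Fth1, had 538, 498 and 676 against 819, 725 and 759 (limma, adjusted p = 0.0076, with a log2 fold change of 0.44). This call was lost without control library 2 (limma, adjusted p = 0.0564). Heph, Hephl1 and Trf had no annotated peak. The 10 genes with a peak include Slc40a1, the iron exporter that works with ceruloplasmin.

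**Figure D5:**
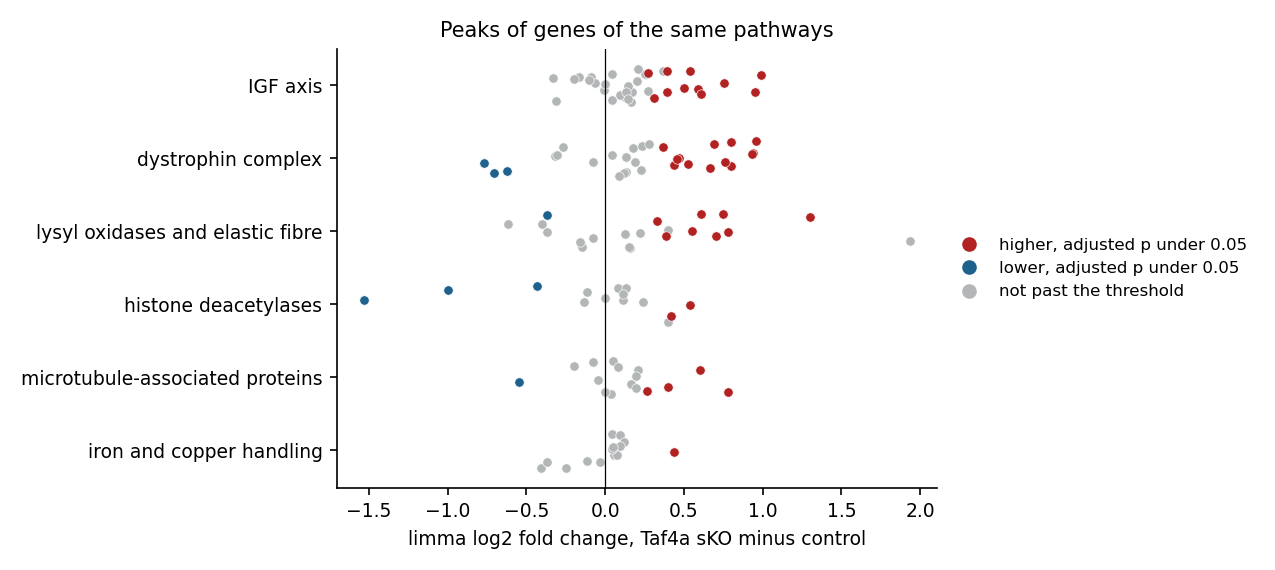
Limma log2 fold change of Taf4a sKO minus control (horizontal axis) of the 131 annotated peaks of the related genes by list, with peaks past an adjusted p of 0.05 in red (higher) or blue (lower). With the authors' scaling, the lists of dystrophin complex and histone deacetylase genes hold 3 lower peaks each. Those of the IGF axis and of iron and copper handling hold none, beside 13.9% of all peaks.

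The labelled cell type was examined by the peaks nearest the start sites of marker genes. Some of these peaks are not at promoters. The distance to the start site was 10189 bp at Cdh5, 8939 bp at Fmod, 8036 bp at Csf1r and 8013 bp at Pecam1. It was 3466 bp at Cx3cr1, 3196 bp at Acta1 and 2177 bp at Pdgfra. According to the study's notes on the sort, most of the sorted cells were pure when measured again, while a sizeable minority were not. All 10 MuSC markers had an annotated peak, and the values summed over them were 17001, 14603 and 17576 in control and 16664, 15819 and 15725 in Taf4a sKO libraries. Pax7 itself had 4533, 3128 and 3729 against 3084, 2923 and 3026 (limma log2 fold change -0.32, adjusted p = 0.030), while Msc and Vcam1 were higher. Thus 2 of the 10 passed the test upwards and 1 downwards, beside 28.0% and 13.9% of all peaks. Among 5 markers of activated myoblasts, Myod1 and Mymk were higher and Myog was lower by limma. The summed value was 4221 ± 300.3 (SD, n = 3) in control and 4339 ± 276 in Taf4a sKO libraries.

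Markers of other cells moved with genotype in part. Each count of limma calls among them stands beside 28.0% higher and 13.9% lower of all peaks, those with no gene included. The 7 fibro-adipogenic markers with a peak summed to 2246, 1934 and 2438 in control and 3199, 3025 and 3033 in Taf4a sKO libraries, with Col1a1 as the most abundant, and without overlap. Of these, Col1a1, Col1a2, Dcn and Lum were higher and Dpt and Pdgfra lower by limma, and Pi16 did not pass the test. Pdgfra, which defines these cells, had 56, 45 and 48 against 35, 23 and 35, and Ly6a had no annotated peak. For 4 endothelial markers the sum was 1557 ± 269 (SD, n = 3) in control and 1958 ± 60.3 in Taf4a sKO libraries, with Tek, higher by limma (1249 and 1626 on average), making up most of the sum and of its difference, Kdr, Pecam1 and Cdh5 not past the test, and Tie1 and Emcn without a peak. For 4 immune markers the sum was 1079 ± 128 and 1240 ± 108, with Csf1r higher and Cd68 lower, and with Ptprc and Cd3e without a peak. Of 6 smooth muscle and pericyte markers Acta2 and Myh11 were higher (4674 ± 298 and 5222 ± 154), and Rgs5 had no peak. Myofibre markers summed to 7943 ± 878 and 8022 ± 680, with 3 of 8 lower, 4 Schwann and glial markers to 3780.0 ± 373 and 3914 ± 124, with Sox10 lower, and tenocyte markers to 3349 ± 375 and 3727 ± 261, with none of 3 past the test. No marker peak was at 0 in all libraries. The part of other cells in the values of the 7 genes was not tested.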

How the data were processed

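ATAC-seq values of 3 control and 3 Taf4a sKO libraries were used. For each peak and library the deposited value is a score, which the authors made by counting reads in a common peak set with featureCounts, normalizing for sequencing depth and rounding. Before, they trimmed reads with Trimmomatic 0.39, aligned them to mm10 with STAR 2.7.11b, removed duplicates with Picard 3.1.1 and called peaks with MACS 3.0.0a7 at a false discovery rate below 0.0001. Whether reads were shifted for Tn5 is not given in the sources used here. Peaks carry the nearest gene within about 10000 bp of its start site, so that gene-body peaks farther away have no gene.

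The scores are not raw counts, so limma 3.58.1 (R 4.3.3, trend and robust) was fitted to log2(value + 1) of the 75384 peaks with a mean above 10, with Benjamini-Hochberg adjustment over all of them. The fit was tested on simulated data with known changes, where calls on unchanged peaks made up a somewhat larger share than the adjusted p threshold implies. The study describes the libraries as biological replicates, while the labels name no animals, so adjusted p values measure the spread between these libraries.

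The 7 genes, the lists of related and marker genes and the tests were chosen with earlier results of these data known. Named were each gained and each start-site peak, up to 3 peaks per gene and direction whose genotypes do not overlap, and per related list the 2 peaks with the smallest adjusted p in each direction. Features came from GENCODE vM21, whose coordinates matched those of all 7 genes, and sequences from RefSeq GRCm38.p6, read with samtools 1.23.1. Peaks inside the genes that are annotated to another gene (5) were left out, and a related list and a marker gene are not reported here. Alternatives covered the minimum mean, the pseudocount, the scaling, the threshold, the membership, a replicate block and each library left out in turn.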

Additional observations from a re-analysis of the deposited data

How the results depend on the processing

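The 17 gained peaks of the 7 genes (beside 7.02% of all peaks) became 11 with TMM factors (5.21%), 9 with scaling to the total signal (4.73%), 12 with a pseudocount of 16 (4.5%), 2 at a log2 ratio threshold of 1.5 (1.46%) and 37 at a 1.5-fold threshold (19.4%). They were 7 of 29 for annotated peaks alone (4.85% of all annotated peaks), 10 of 66 without Arhgap24 (chosen after seeing the data), and 14 to 20 when a library was left out (6.17% to 9.76%), with 5 to 7 of the choosing peaks among them. The median log2 ratio of the peaks that were not gained (0.30) became 0.19 with TMM factors, 0.15 with total signal, 0.16 with quantile normalization, 0.14 for annotated peaks alone and 0.21 without Arhgap24, and 0.24 to 0.36 with a library left out, while that of all peaks that were not gained (0.07) became -0.04, -0.07 and -0.06 with the scalings and 0.02 to 0.14 with a library left out. The median at the start-site peaks (0.16) became 0.057, 0.021 and 0.035 with these 3 scalings and 0.060 to 0.25 with a library left out. The median difference between gained and start-site peak (1.07) became 0.91 with a pseudocount of 16 and 0.99 to 1.10 with a library left out. Of the peaks that were not gained, limma called 43 higher and 8 lower, beside 22.6% and 14.9% of all such peaks. It called 5 and 1 of the 22 annotated ones (18.6% and 12.1% of all annotated peaks that were not gained), 17 and 4 of 56 without Arhgap24, 13 lower with total signal (27.8%), and 29 to 53 higher (15.5% to 33.2%) and 5 to 9 lower (12.2% to 14.3%) with a library left out. Of the related peaks, 40 were higher and 8 lower, with 22, 27 and 28 lower under TMM factors, total signal and quantile normalization, and 32 to 54 higher and 6 to 9 lower with a library left out. Over all peaks, 10476 were called lower, and 16803, 19464 and 18898 with these scalings. The 21102 called higher became 16024 to 28502 with a library left out. The gained peaks of the whole table fell from 5294 to 3396 with a pseudocount of 16.

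Same-numbered libraries correlated at 0.11, -0.12 and -0.03 in their deviations from the group means, so that the numbers do not pair them, and not every library correlated best with its own number. With a replicate block, 43 of the peaks that were not gained were higher and 9 lower, beside 23.8% and 15.7% of all such peaks. Of the related peaks 40 were higher and 9 lower, beside 21944 and 11004 of all 75384 peaks. The causes of these shifts were not tested. With 3 libraries per genotype, the precision of each value is limited.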
